A study of Canis lupus familiaris with 15 samples.

Results

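The genes described here encode the spliceosome's protein parts and the hnRNP proteins, measured in 3 canine mammary tumour cell lines. Members were all genes on the array whose symbol begins with HNRNP, SRSF, SNRP, SF3A, SF3B, PRPF or U2AF, or with LSM and a digit, older spellings included. The rule found 49 genes among the 5246 genes with a symbol, read by 79 probes, and all 49 had a value on every array. They comprised 14 hnRNP proteins, 9 SR proteins, 3 Sm core proteins, 3 proteins specific to U1 or U2 snRNP, 2 U2AF subunits, 4 SF3A or SF3B subunits, 5 PRPF proteins and 9 LSM proteins. P114 was established from an anaplastic carcinoma of the mammary gland, CMT-U229 from a benign mixed tumour and CMT-U335 from a mammary osteosarcoma. Each is 1 cultured line, harvested near confluence without treatment, so a difference between lines is a difference between those cultures. RNA of a pair of lines was hybridised to each of 15 cDNA arrays with 2 dyes, 5 arrays per pair, and the dyes were exchanged on some arrays of every pair. The labels call the 5 arrays biological replicates, while the design text speaks of dye swaps beside at least 1 biological replicate. The p-values below therefore measure the spread between arrays, which may be partly technical.

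Introns are removed from pre-mRNA by the spliceosome, which assembles from small nuclear ribonucleoproteins (snRNPs) and many further proteins. U1 snRNP marks the 5′ splice site, U2AF and then U2 snRNP with its SF3A and SF3B complexes mark the branch point, and the U4/U6.U5 particle completes the machine. Sm proteins form the ring around most spliceosomal RNAs, and LSM proteins form the related ring on U6 and a cytoplasmic one that works in mRNA decay. SR proteins mostly promote the use of exons they bind, whereas hnRNP proteins coat nascent RNA and often repress nearby splice sites. These proteins are abundant in all nucleated cells, and their levels are known to change with growth and cell type.

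All values are log2 ratios of the first line over the second on which 0 is an equal level and a negative value a lower level in the first line, and means carry the standard error from limma. The deposited values were read as Cy5 over Cy3, which the sources do not state, so every direction below is likely and not settled. Calls are limma tests with an adjusted p under 0.05, by Benjamini and Hochberg's method over all 5246 genes. Of the epithelial markers, EPCAM, KRT8 and KRT18 were higher in P114 than in CMT-U335 (log2 ratios 3.55, 2.46 and 3.48) and the junction gene TJP1 was lower (-0.35). Among bone markers, COL1A2 was lower in P114 than in CMT-U335 (-1.39), but SPP1 (4.12) and SPARC (0.56) were higher in P114.

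P114 had more of these genes called lower than higher against CMT-U335. Against CMT-U229 the calls were few and near the share of all genes, and 0 were left with apparent dye swaps averaged, as described below. In P114 against CMT-U335, 0 members were called higher, where 7.89% of all genes were, and 14 were called lower, where 14.4% of all genes were (22.3% in either direction). At an unadjusted p under 0.05 limma gave 18 members lower and 2 higher, HNRNPH3 (0.33 ± 0.114, adjusted p = 0.0783) and LSM8 (0.26 ± 0.0975). The median member ratio was -0.12, against -0.02 over all genes, and 36 of 49 members (73.5%) had a mean below 0, against 54.8% of all genes. Against CMT-U229, P114 again had 0 members called higher (3.32% of all genes were), and 3 were called lower (3.98% of all genes, 7.3% in either direction), with a median of -0.15 against -0.01. At an unadjusted p under 0.05 limma gave 0 members higher and 6 lower there. Shares of all genes at that unadjusted limit are not given here, so these counts cannot be set against them. In CMT-U229 against CMT-U335 the calls ran both ways, with 5 members higher (8.77% of all genes) and 6 lower (8.58%, 17.3% in either direction), and a median of -0.06 against -0.01. Across the pairs 21 members were called at least once and 28 never.

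**Figure D1:**
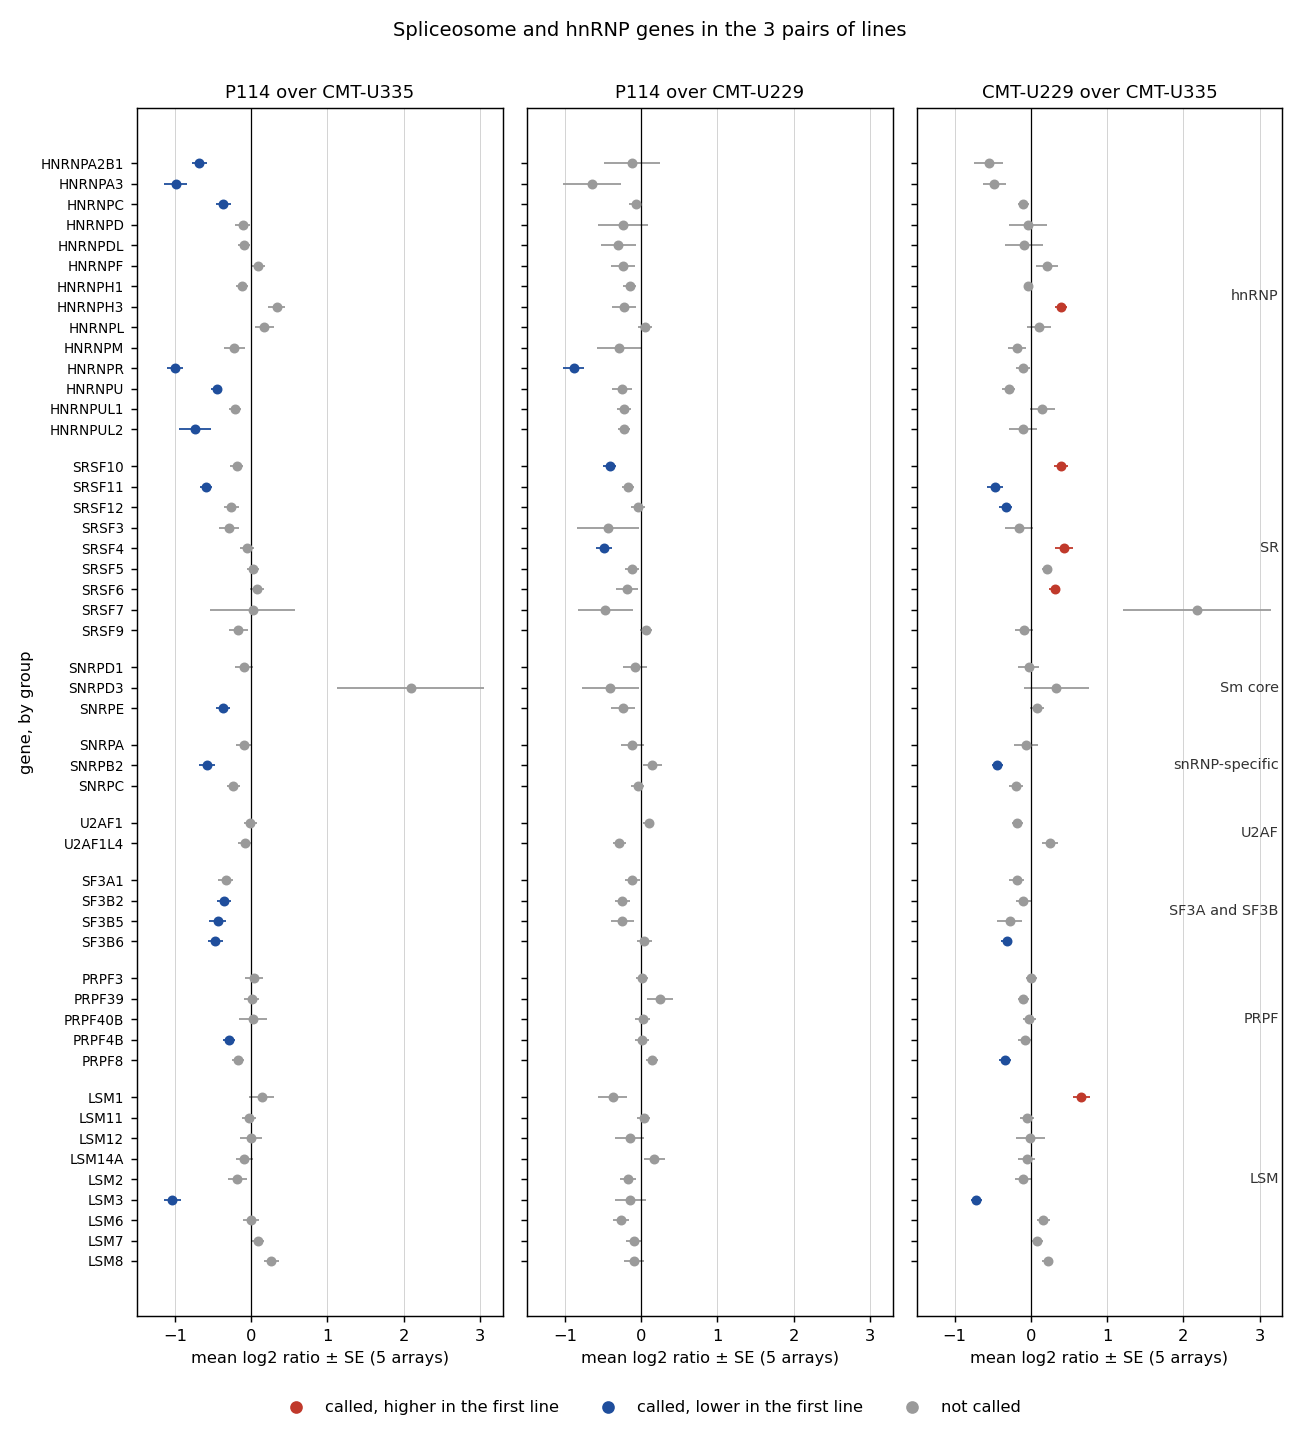
Mean log2 ratio (x axis, ± SE, 5 arrays) of all 49 members, by group down the page, with 1 panel per pair of lines; coloured points were called by limma. Called points lie left of 0 in both panels with P114, and on both sides of 0 in the panel of CMT-U229 over CMT-U335.

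Among the hnRNP proteins, P114 had 6 of 14 lower (42.9%, against 14.4% of all genes) and 0 higher (7.89% of all genes) than CMT-U335. Their median ratio was -0.22, against -0.02 over all genes. HNRNPR, which binds nascent RNA and is closely related to SYNCRIP, had ratios of -0.78, -1.37, -1.03, -1.06 and -0.75 on arrays 1 to 5 of P114 over CMT-U335. All 5 arrays lay clearly below 0, and the mean of -0.999 ± 0.105 stood for a 2.00-fold higher level in CMT-U335 (adjusted p = 6.78e-04). Against CMT-U229 the gene had ratios of -0.73, -1.22, -0.71, -0.45 and -1.31, a mean of -0.89 ± 0.139 (adjusted p = 0.0112). HNRNPR was thus lower in P114 than in either other line, while CMT-U229 over CMT-U335 gave -0.11 ± 0.0926 (adjusted p = 0.533). The call in each of its P114 pairs held whichever array was left out.

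HNRNPA3, an A/B-type hnRNP that travels with mRNA into the cytoplasm, had ratios of -0.75, -1.12, -1.02, -0.50 and -1.57 on the arrays of P114 over CMT-U335. Every array was negative, array 5 the most and array 4 the least, around a mean of -0.99 ± 0.147 (adjusted p = 0.00306). HNRNPA2B1, its relative that also reads RNA sorting signals, had ratios of -0.74, -0.86, -0.89, -0.38 and -0.55, a mean of -0.68 ± 0.0966 (adjusted p = 0.00254). That call ended where all 15 arrays shared 1 estimate of the spread (adjusted p = 0.0916). HNRNPUL2, a relative of the chromatin-bound HNRNPU, had ratios of -1.35, 0.04, -1.37, -0.36 and -0.66. Its array 2 lay at 0 while arrays 1 and 3 were the deepest, and the mean of -0.74 ± 0.213 was called only narrowly (adjusted p = 0.0446). HNRNPU itself, a scaffold protein of chromatin and RNA, averaged -0.45 ± 0.0754, and its 4 probes gave means from -0.65 to -0.28. HNRNPC, which coats uridine-rich stretches of pre-mRNA, averaged -0.36 ± 0.0975. Left-out arrays ended the call for HNRNPC (without array 1, 3 or 5, adjusted p up to 0.101) and for HNRNPUL2 (without array 1, 3, 4 or 5, up to 0.132).

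Dividing-cell markers were also low in P114 beside these genes: 7 of 8 measured were called lower than in CMT-U335 and 0 higher, with means from -1.68 to -0.15 and a median of -0.81. Their part in the hnRNP ratios was not tested. In RNA of a whole culture, a smaller share of dividing cells and less RNA per cell cannot be told apart. Against CMT-U229, limma called 0 of the 8 markers, although all 8 means lay below 0, from -0.83 to -0.08. HNRNPR was called lower in that pair.

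HNRNPH3, of the family that binds runs of guanine, was the one hnRNP gene called in CMT-U229 against CMT-U335. Its arrays read 0.36, 0.23, 0.28, 0.66 and 0.44, all above 0, with a mean of 0.40 ± 0.0825 that stood for a 1.32-fold higher level in CMT-U229 (adjusted p = 0.0178, and 0.0686 without array 5). The 7 hnRNP genes called in 0 pairs were HNRNPD, HNRNPDL, HNRNPF, HNRNPH1, HNRNPL, HNRNPM and HNRNPUL1, with pair means between -0.30 and 0.21.

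SR proteins divided between the lines. SRSF11, a protein found with U2AF at 3′ splice sites, had ratios of -0.51, -0.50, -0.66, -0.53 and -0.78 on the arrays of P114 over CMT-U335. The arrays lay close together below 0, with a mean of -0.60 ± 0.0769 (adjusted p = 0.00172). In CMT-U229 over CMT-U335 it had -0.40, -0.28, -0.17, -0.80 and -0.70, a mean of -0.47 ± 0.109 (adjusted p = 0.0262), deepest on arrays 4 and 5. SRSF11 was thus called higher in CMT-U335 than in both other lines with its probes averaged. With the median over probes the call against CMT-U229 ended (-0.35, adjusted p = 0.0552). Most of its size came from 1 of its 3 probes, which averaged -1.22 and -0.96 in the same order of pairs, while the others lay between -0.30 and -0.22. Which transcripts each probe reads was not given in the sources used here.

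SRSF10, an SR protein that acts as a repressor once dephosphorylated, was highest in CMT-U229. Its ratios were -0.48, -0.53, -0.16, -0.37 and -0.51 on the arrays of P114 over CMT-U229, a mean of -0.41 ± 0.0837 (adjusted p = 0.0297). In CMT-U229 over CMT-U335 they were 0.40, 0.18, 0.25, 0.68 and 0.48, a mean of 0.40 ± 0.0891 (adjusted p = 0.0232). No array went against either direction. In the pair of CMT-U229 over CMT-U335, 3 of its 4 probes averaged 0.50 to 0.59, and the other lay at -0.02. That probe was also the nearest to 0 in P114 over CMT-U229, at -0.11.

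SRSF4, a long-tailed SR protein that binds exonic enhancers, showed the same order of lines. It had ratios of -0.64, -0.24, -0.56, -0.23 and -0.74 in P114 over CMT-U229, a mean of -0.48 ± 0.102 (adjusted p = 0.035). CMT-U229 over CMT-U335 gave 0.75, 0.56, 0.52, -0.07 and 0.42, with array 4 apart from the rest and a mean of 0.44 ± 0.12 (adjusted p = 0.0478). SRSF6, another enhancer-binding SR protein, was higher in CMT-U229 than in CMT-U335, at 0.46, 0.19, 0.35, 0.38 and 0.19 on the arrays and 0.31 ± 0.0718 on average (adjusted p = 0.0257). SRSF12, a relative of SRSF10, was lower in CMT-U229 than in CMT-U335, at -0.52, -0.40, -0.18, -0.16 and -0.39, a mean of -0.33 ± 0.0799 (adjusted p = 0.03).

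The smaller SR calls were sensitive to leaving out single arrays. Without 1 array at a time, the call ended for SRSF6 in 5 of 5 cases (adjusted p up to 0.0861), and also where all 15 arrays shared 1 estimate of the spread (0.0626). It ended for SRSF12 and SRSF4 in CMT-U229 over CMT-U335 without array 1, 2, 3 or 5 (up to 0.112 and 0.149), and for SRSF11 there without array 1, 2, 4 or 5 (up to 0.0943). SRSF10 lost its call there without array 1, 4 or 5 (up to 0.0864). In P114 over CMT-U229 the call ended for SRSF10 without array 1, 2, 4 or 5 (up to 0.121) and for SRSF4 without array 1, 2, 3 or 5 (up to 0.134). SRSF3, SRSF5, SRSF7 and SRSF9 were called in 0 pairs.

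Of the snRNP proteins, SNRPB2, which binds the U2 RNA as the B′′ protein, was higher in CMT-U335 than in both other lines. P114 over CMT-U335 gave -0.35, -0.72, -0.94, -0.37 and -0.54, a mean of -0.58 ± 0.105 (adjusted p = 0.00703). CMT-U229 over CMT-U335 gave -0.44, -0.51, -0.35, -0.29 and -0.62, a mean of -0.44 ± 0.0749 (adjusted p = 0.00764). All 10 arrays were below 0, whereas P114 over CMT-U229 had values on both sides and a mean of 0.15 ± 0.127 (adjusted p = 0.672). Both calls held whichever array was left out. The U1 proteins SNRPA and SNRPC were called in 0 pairs.

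In the Sm ring, SNRPE averaged -0.37 ± 0.0935 in P114 over CMT-U335 (adjusted p = 0.0279), a call that ended without array 1, 2, 3 or 5 (up to 0.0759). SNRPD1 had pair means between -0.09 and -0.02. SNRPD3 had the largest mean of any member in a P114 pair, 2.09 ± 0.967 in P114 over CMT-U335, but its arrays read 2.33, 0.65, 7.10, 0.11 and 0.27. A single array at 7.10 carried that mean, and it was not called (adjusted p = 0.18).

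SF3B, the complex that holds U2 snRNP on the branch point, was lower in P114 than in CMT-U335 for its 3 members named SF3B. SF3B6, a subunit of this complex, had ratios of -0.46, -0.16, -0.82, -0.42 and -0.49, a mean of -0.47 ± 0.101 (adjusted p = 0.0142). It was called whichever array was left out. In CMT-U229 over CMT-U335 it had -0.15, -0.46, -0.36, -0.24 and -0.36, a mean of -0.31 ± 0.0721 (adjusted p = 0.0257, and up to 0.105 without array 2, 3 or 5). With the median over probes that call ended too (-0.28, adjusted p = 0.0621). Its 10 arrays against CMT-U335 were all below 0, and its 3 probes gave negative means in both pairs.

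SF3B2 and SF3B5, a large and a small subunit of the same complex, averaged -0.35 ± 0.0924 and -0.44 ± 0.112 in P114 over CMT-U335. Their calls ended without array 1, 2, 4 or 5 for SF3B2 (adjusted p up to 0.0916) and without array 1, 4 or 5 for SF3B5 (up to 0.0829). SF3B5 also lost its call where all 15 arrays shared 1 estimate of the spread (adjusted p = 0.0518). SF3A1, of the partner complex SF3A, averaged -0.34 ± 0.104 and was not called (adjusted p = 0.0566). U2AF1, the small subunit that reads the 3′ splice site, averaged -0.01 ± 0.082 in P114 over CMT-U335, 0.10 ± 0.0742 in P114 over CMT-U229 and -0.18 ± 0.0775 in CMT-U229 over CMT-U335. It was called in 0 pairs, as was its relative U2AF1L4.

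PRPF8, the scaffold at the catalytic centre of U5 snRNP, was lower in CMT-U229 than in CMT-U335. Its arrays read -0.28, -0.29, -0.16, -0.59 and -0.35, all below 0, with a mean of -0.33 ± 0.0797 (adjusted p = 0.0291, and up to 0.0948 without array 1, 2, 4 or 5). PRPF4B, a kinase of the U4/U6.U5 particle, averaged -0.29 ± 0.0732 in P114 over CMT-U335 (adjusted p = 0.0256), and its call ended without any 1 of the 5 arrays (up to 0.0888). PRPF3, PRPF39 and PRPF40B were called in 0 pairs.

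LSM3, shared by the nuclear and the cytoplasmic LSM ring, gave the deepest called mean of any member. P114 over CMT-U335 read -0.87, -0.63, -1.15, -1.21 and -1.31, all far below 0, with a mean of -1.04 ± 0.113 that stood for a 2.05-fold higher level in CMT-U335 (adjusted p = 8.00e-04). CMT-U229 over CMT-U335 read -0.59, -0.77, -0.67, -0.61 and -0.94, a mean of -0.71 ± 0.0769 (adjusted p = 0.00126). Both calls held whichever array was left out, and its 2 probes gave -1.33 and -0.74 in P114 over CMT-U335. In CMT-U229 over CMT-U335, 3 of the 8 dividing-cell markers were called lower and 0 higher, and their part in the LSM3 ratio was not tested. P114 over CMT-U229 ranged from -0.54 to 0.85 with a mean of -0.14 ± 0.203 and was not called.

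LSM1, found only in the cytoplasmic ring that promotes decapping, was higher in CMT-U229 than in CMT-U335. The arrays read 0.57, 0.53, 0.62, 1.13 and 0.47, with array 4 above the other 4, and the mean of 0.66 ± 0.108 stood for a 1.58-fold difference (adjusted p = 0.00644). It was called whichever array was left out, and the mean without array 4 was 0.55. LSM8, which takes the place of LSM1 in the nuclear ring on U6, averaged 0.22 ± 0.0711 in that pair and was not called (adjusted p = 0.0809). The remaining ring members LSM2, LSM6 and LSM7 were called in 0 pairs, as were LSM11 of the U7 snRNP, LSM12 and LSM14A.

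7 members were called the same way in both pairs of a line. HNRNPR was lower in P114 (1 member, 1.93% of all genes), and 0 members were higher there (2.06% of all genes). SRSF10 and SRSF4 were higher in CMT-U229 (2 members, 1.73% of all genes) and 0 were lower (1.05%). LSM3, SF3B6, SNRPB2 and SRSF11 were higher in CMT-U335 (4 members, 6.2% of all genes) and 0 were lower (4% of all genes). SF3B6 and SRSF11 did not stay in this set with the median over probes. With apparent dye swaps averaged, as described below, only LSM3 and SNRPB2 of the 7 members kept both calls. SRSF4 also lost both calls with a dye term. The 2 fits of a line share that line's RNA, so these counts describe the lines and are no separate test.

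**Figure D2:**
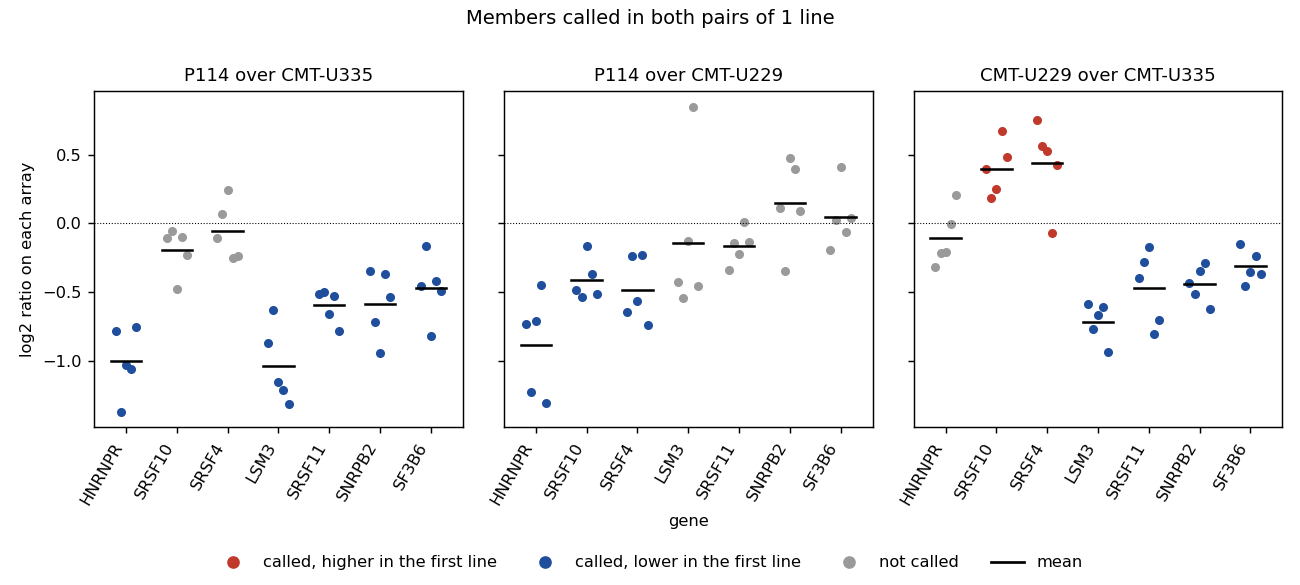
Log2 ratio on each of 5 arrays per pair (points, y axis) and their mean (bars) for the 7 members called in both pairs of 1 line. HNRNPR lies below 0 on all 10 arrays with P114, and LSM3, SRSF11, SNRPB2 and SF3B6 lie below 0 on all 10 arrays over CMT-U335.

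A fit of 3 line levels to all 15 arrays put the lines in order for each member. P114 was the lowest of the 3 lines for 29 of 49 members, against 37.1% of all genes, and CMT-U335 the highest for 27, against 39.8% of all genes. Read as Cy3 over Cy5, the order turns round, with P114 the highest for those 29 members and CMT-U335 the lowest for those 27, and each count and share of higher and lower calls below changes places. Against the mean of the other lines, P114 was called higher for 0 members (9.65% of all genes) and lower for 16 (18.6%). CMT-U229 was called higher for 9 members (11.9%) and lower for 3 (9.99%), and CMT-U335 higher for 17 (19.9%) and lower for 3 (13.9%). HNRNPR lay 0.94 ± 0.0827 below the mean of the other lines in P114, and LSM3 0.87 ± 0.109 above it in CMT-U335. Neighbouring lines were often not separated: P114 and CMT-U229 were not called apart for SF3B6, SNRPB2, LSM3 or SRSF11, nor CMT-U229 and CMT-U335 for HNRNPR. The direct ratio of P114 over CMT-U335 could be set against the sum of the other 2 pairs, and limma over 15 arrays called 0 members and 0 of all genes (0%) for a gap between them. At an unadjusted p under 0.05 there were 0 members and 17 of 5246 genes, far under the share of 0.05 that chance gives. The test was thus stricter than its p-values state, and its lack of calls does not show that the pairs add up. The median gap was 0.109 for members and 0.0844 for all genes.

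Which arrays share RNA is not stated. In P114 over CMT-U229 and CMT-U229 over CMT-U335, some were taken as dye swaps of 1 RNA pair. Of 15 ways to couple the arrays, the couples used there kept the lowest part of the variation inside couples. That part had medians of 0.0598 over 78 genes and 0.177 over 52 genes, picked for a wide spread and a small dye effect. The couples came from earlier work on these same arrays, so their rank cannot test whether coupled arrays share RNA. In P114 over CMT-U335 the part was 0.426 over 52 genes and ranked 2 of 15, so those couples are less sure. With the couples of all 3 pairs, taken from an earlier analysis of these data, averaged into 1 value each, fewer calls were left. P114 over CMT-U335 then had 0 members higher (6.12% of all genes) and 9 lower (9.87%). P114 over CMT-U229 had 0 higher (0.801% of all genes) and 0 lower (0.705%), so that HNRNPR, SRSF10 and SRSF4 were no longer called there. At an unadjusted p under 0.05 limma gave 6 members lower and 0 higher in that pair, and the share of all genes is not given here. CMT-U229 over CMT-U335 kept LSM1 as the 1 member higher (4.37%) and LSM3 and SNRPB2 as the 2 lower (3.45%). A test of the SAM type, the method the design text names, called 1 member higher (9.34% of all genes) and 15 lower (17.4%) in P114 over CMT-U335. It called 0 higher (4.16%) and 3 lower (5.68%) in P114 over CMT-U229, and 5 higher (9.84%) and 8 lower (9.65%) in CMT-U229 over CMT-U335. That test took its false calls as a median over sign patterns, chosen after a mean over them had called 0 genes.

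**Figure D3:**
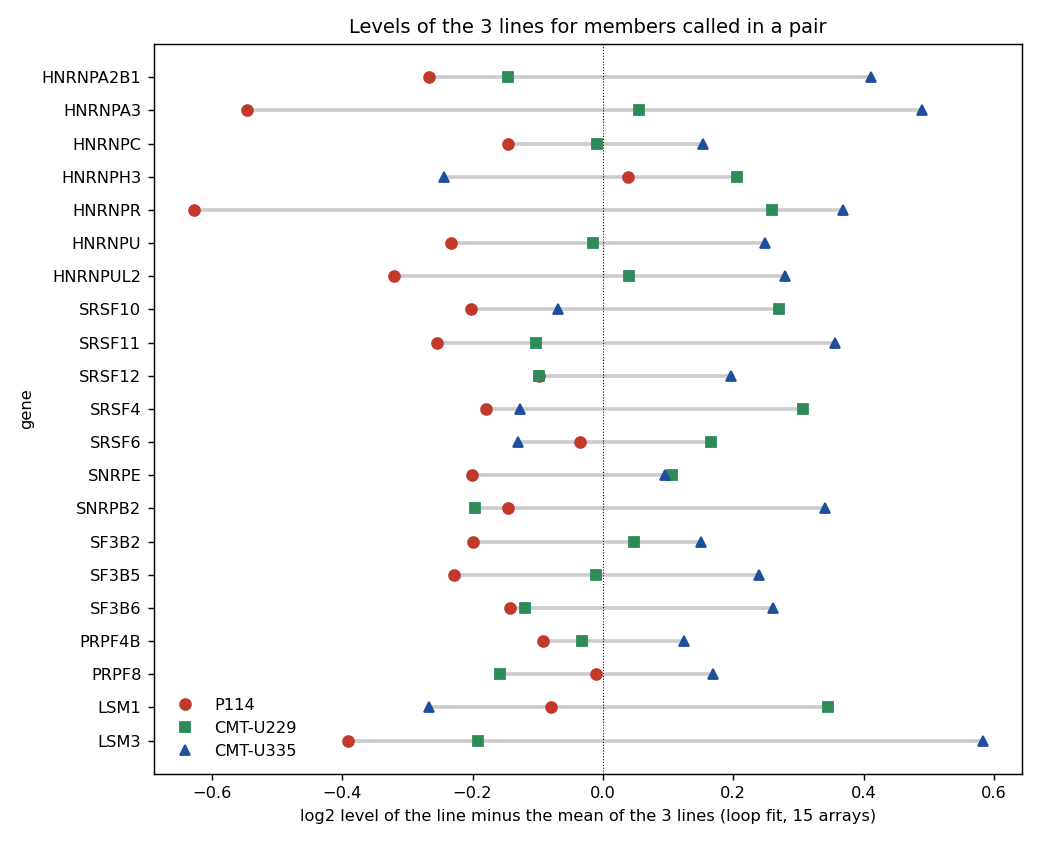
Log2 level of each line minus the mean of the 3 lines (x axis, fit over 15 arrays) for the 21 members called in any pair, with no error bars. P114 lies at -0.63 for HNRNPR and -0.55 for HNRNPA3, the leftmost of the lines, and CMT-U335 at 0.58 for LSM3, the rightmost.

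Several members varied more between the arrays of 1 pair than between lines. In P114 over CMT-U229, 8 members had a standard deviation over 0.6, as 5.83% of all genes did, a limit chosen after the values were seen. SRSF3, the smallest SR protein and an mRNA export adaptor, read -0.42, -1.56, -0.15, 1.43 and -1.46. HNRNPA3 read -1.04, -1.40, -0.51, 1.21 and -1.49, and HNRNPA2B1 read -0.08, -1.06, -0.01, 1.57 and -1.01. In each of them array 4 stood alone above 0, and arrays 2 and 5 were the lowest.

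HNRNPD, which binds AU-rich elements of unstable mRNAs, read -0.57, -0.77, -0.28, 1.41 and -0.99. HNRNPM read -0.48, -1.003, -0.10, 1.10 and -0.93, and HNRNPDL, a relative of HNRNPD, read -0.45, -0.75, -0.23, 0.78 and -0.85. All 6 genes were above 0 on array 4 and below 0 on the other 4 arrays. Array 4 also had the highest median over the 49 members in this pair, 0.17 against -0.43 to -0.08 on the others, while the median over all genes was -0.01 there. Without array 4, 5 members were called lower in P114 (4.86% of all genes), since HNRNPA3, HNRNPD and HNRNPDL were gained and SRSF10 was lost.

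The same 6 genes also split the arrays of CMT-U229 over CMT-U335. Arrays 4 and 5 averaged -0.81 and -0.80 over them, while arrays 1, 2 and 3 averaged 0.18, 0.02 and 0.16. Deviations from the pair means correlated between the 6 genes with Pearson's r from 0.777 to 0.981 over 15 arrays. These correlations are descriptions with no test, because the genes were picked for their spread and arrays may share RNA. Of the other 43 members, 3 followed the mean of the 6 with r over 0.8, namely HNRNPU, SRSF6 and HNRNPF.

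Markers of dividing cells moved with these genes. The mean of 8 dividing-cell markers was 0.70 on array 4 of P114 over CMT-U229, where 7 of 8 were above 0, and it lay between -1.05 and -0.02 on the other 4 arrays. Over the 15 deviations from pair means, it correlated with the mean of the 6 genes at r = 0.961 and Spearman's rho = 0.936, and at r = 0.934 without the 2 farthest arrays. The markers ranged from r = -0.123 for FOXM1, a transcription factor of the cell cycle, to r = 0.976 for BIRC5, the mitotic protein survivin. Outside the members, the genes most like the 6 by this measure were RFC5 (0.984), KIF23 (0.978), VRK1 (0.978), KPNA2 (0.976) and BIRC5, itself 1 of the 8 markers. Nearly as high came FAM166A (0.972), REXO5 (0.970), CGGBP1 (0.969) and APOL5 (0.968), none of them among the markers. The part of dividing cells in the array spread was not tested.

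**Figure D4:**
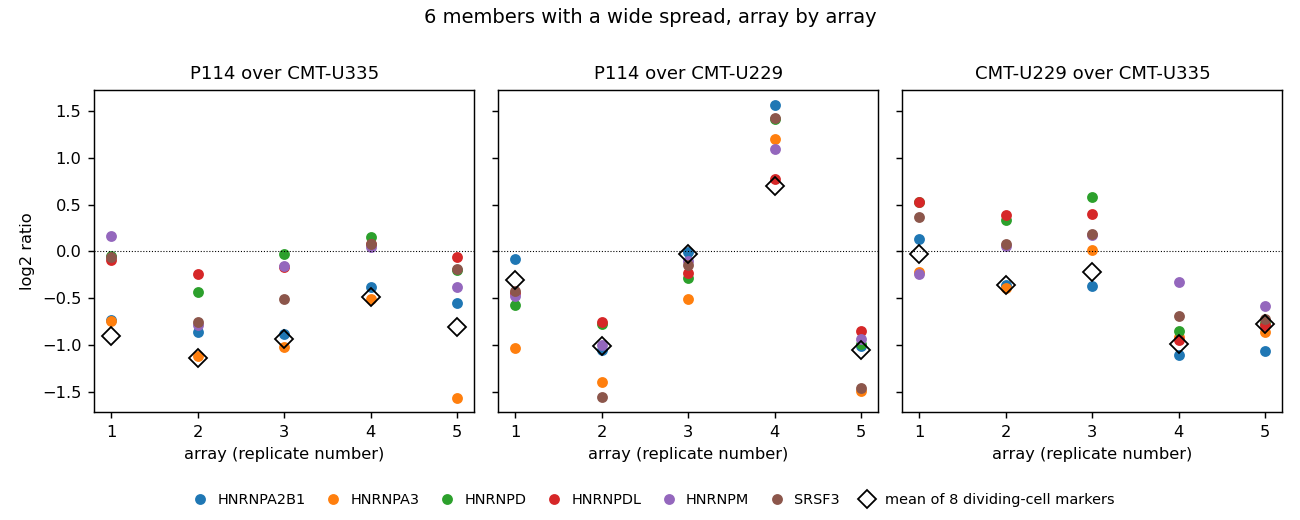
Log2 ratio (y axis) of 6 members on arrays 1 to 5 of each pair (x axis), with the mean of 8 dividing-cell markers as open diamonds. Array 4 of P114 over CMT-U229 lies above 0 for all 6 genes, and arrays 4 and 5 of CMT-U229 over CMT-U335 lie below 0 for all 6.

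SRSF7 and SNRPD3 were spread differently. SRSF7, an SR protein of mRNA export, read 4.09, 4.20, 0.71, -2.20 and 4.08 in CMT-U229 over CMT-U335, a mean of 2.18 ± 0.969 that was not called (adjusted p = 0.196). As deposited, before arrays were turned by their dyes, Cy5 was the brighter dye for SRSF7 on 14 of 15 arrays and for SNRPD3 on 13 of 15. A dye term in each pair's own fit was called for 0 members and 0 of all genes (0%). At an unadjusted p under 0.05 limma gave 436, 393 and 474 genes and 7, 4 and 4 members in the 3 pairs.

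One dye term over all 15 arrays, added after the values were seen, was called for 7 members and 11.7% of all genes. It was 1.55 ± 0.266 for SRSF7, 0.38 ± 0.0647 for LSM12 and 0.24 ± 0.0556 for PRPF40B towards Cy5. Towards Cy3 it was -0.30 ± 0.0711 for LSM1, -0.17 ± 0.0466 for SNRPB2, -0.16 ± 0.0318 for LSM11 and -0.13 ± 0.0373 for SRSF12. LSM11 was brighter in Cy3 on 15 of 15 arrays. The dyes were exchanged on 2 of 5 or 3 of 5 arrays of a pair, so such a term does not fully cancel in a pair mean. For SNRPB2, LSM1 and SRSF12 the calls in CMT-U229 over CMT-U335 held with a dye term in the fit of that pair.

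**Figure D5:**
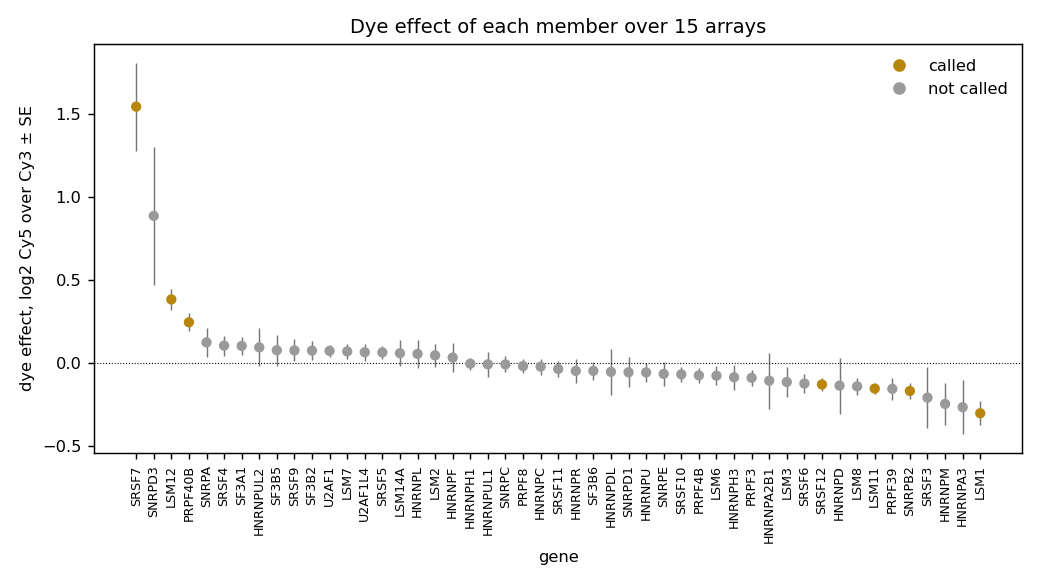
Dye effect of each member (y axis, log2 Cy5 over Cy3, ± SE) in 1 fit over 15 arrays, ordered from high to low along the x axis, with called members in gold. SRSF7 stands apart at 1.55, and LSM1 has the lowest value at -0.30.

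Beyond the members, 81 of 135 listed splicing genes were measured. In P114 against CMT-U335, 16 of them were lower (19.8%, against 14.4% of all genes) and 3 higher (3.70%, against 7.89%), with a median of -0.12 against -0.02. CLK1, a kinase of SR proteins, was lower in P114 (-1.52 ± 0.332), as were the exon junction genes MAGOHB (-0.78 ± 0.0969) and SAP18 (-0.62 ± 0.129) and the paraspeckle gene NONO (-0.61 ± 0.108). PUF60, a partner of U2AF at the 3′ splice site, was higher in P114 (1.08 ± 0.123), as were CWC15 (0.41 ± 0.0882) and WBP4 (0.31 ± 0.0857).

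Against CMT-U229, P114 had 4 of the 81 genes lower (4.94%, against 3.98% of all genes) and 0 higher (3.32% of all genes), with a median of -0.10 against -0.01. They were KHDRBS3, an RNA-binding splicing regulator (-0.82 ± 0.0745), MAGOHB (-0.72 ± 0.152), RBM5 (-0.45 ± 0.0935) and MBNL1, the muscleblind splicing regulator (-0.41 ± 0.0857). In CMT-U229 against CMT-U335, 9 were higher (11.1%, against 8.77% of all genes) and 5 lower (6.17%, against 8.58%), with a median of 0.04 against -0.01. PUF60 (1.09 ± 0.117), CWC15 (0.64 ± 0.0744), KHDRBS3 (0.63 ± 0.0704) and the SF3B subunit PHF5A (0.58 ± 0.075) led the higher genes. CLK1 (-1.60 ± 0.277), TIAL1 (-0.50 ± 0.0847), CRNKL1 (-0.48 ± 0.101) and ISY1 (-0.39 ± 0.0691) led the lower ones. Within SF3B, PHF5A was thus higher in CMT-U229 while SF3B6 was lower.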

How the data were processed

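RNA of 3 canine mammary tumour cell lines was compared in pairs on 15 cDNA arrays with 2 dyes. Per the labels, cells were harvested near confluence, RNA was purified on columns, amplified and labelled with Cy3 or Cy5. The deposited values, read here as log2 ratios of the dyes, had been log transformed and normalized by the authors, per the series' design text. Base 2 was chosen because the largest absolute value of 12.4 means 5511-fold in base 2 and 249732-fold as a natural log, against a 16-bit scanner range of 65536. Neither the base nor the numerator dye is stated in the sources used here, and Cy5 over Cy3 was taken from the channel order. Array medians lay between -0.00671 and 0.0134. Without spot intensities, the brightness behind each ratio is not known here. Precision is limited by having 5 arrays per pair.

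The table held 22176 probes with 2 missing values. Of these, 7694 had 1 gene symbol in the platform annotation and 14482 had none. Symbols were updated through RefSeq (7340 probes) or kept (354). Each array was turned to the first line over the second by its labelled dyes, probes were averaged per gene, and a gene needed values on at least 3 of 5 arrays, which left 5246 genes. The first line was in Cy5 on 3, 2 and 3 arrays of P114 over CMT-U335, P114 over CMT-U229 and CMT-U229 over CMT-U335.

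Mean ratios were tested against 0 in each pair with limma 3.58.1 in R 4.3.3 (lmFit and eBayes, two-sided), with Benjamini-Hochberg adjustment over all 5246 genes and a threshold of 0.05. Fits over 15 arrays gave line levels, the gap around the loop and dye effects. The procedure was tested on simulated data. Members, gene lists and tests were chosen with earlier results of these data known. Values on every array were given for up to 6 called members per pair and direction with the largest means and for members called in both pairs of a line, and other called members got a mean. HNRNPH3 in P114 over CMT-U335, LSM8, SF3A1, SNRPD1 and the members with a wide spread or a dye effect were named after their values were seen. Alternatives changed scaling, filters, the dye term, the model, the threshold, the summary of probes and the arrays used. No sequences are printed, since no sequence table was used here.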

Additional observations from a re-analysis of the deposited data

Results flagged for a closer look

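In 5 of 66 sets of 5 arrays examined for the named members, 1 array lay far from the other 4 by Dixon's criterion, which chance alone meets in about 1 of 20 sets. LSM1 had 0.93 on array 1 of P114 over CMT-U335, while the others lay between -0.16 and 0.10, and it was not called in that pair. LSM1 also had 1.13 on array 4 of CMT-U229 over CMT-U335, where the others lay between 0.47 and 0.62. PRPF8 had 0.0931 on array 4 of P114 over CMT-U335, against -0.27 to -0.19 on the others. U2AF1 had 0.249 on array 5 of P114 over CMT-U335, against -0.12 to -0.03, and -0.0759 on array 5 of P114 over CMT-U229, against 0.12 to 0.17.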

How the results depend on the processing

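None of the 28 calls changed direction under the alternatives with the dyes read as Cy5 over Cy3. Setting array medians to 0, scaling arrays by their median absolute value and both filters on missing values kept 28 of 28 calls. Read as Cy3 over Cy5, the members called were 14 higher and 0 lower in P114 over CMT-U335 and 3 higher and 0 lower in P114 over CMT-U229. Leaving out 1 array gave 0 to 1 members higher (5.85% to 7.51% of all genes) and 8 to 11 lower (10% to 13%) in P114 over CMT-U335, 1 to 5 lower (1.91% to 4.86%) in P114 over CMT-U229, and 1 to 4 higher (5.81% to 7.55%) and 2 to 5 lower (5.07% to 8.92%) in CMT-U229 over CMT-U335. At an adjusted p under 0.01, 7 members were lower in P114 over CMT-U335 (7.61% of all genes) and 0 lower in P114 over CMT-U229 (1.68%). Limma gave 6 lower in the latter pair at an unadjusted p under 0.05, where the share of all genes is not given here. In CMT-U229 over CMT-U335, 1 was higher (4.73%) and 2 lower (4.23%) at an adjusted p under 0.01. Under 0.1, 1 was higher (10% of all genes) and 18 lower (19.1%) in P114 over CMT-U335. CMT-U335 was then set apart as higher for 8 and lower for 1, and the shares of all genes for these are not given here.

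Averaging apparent dye-swap couples, which came from an earlier analysis of these data, kept 12 of 28 calls with fewer replicates. It gave 9 members lower in P114 over CMT-U335 (9.87% of all genes), where the couples are less sure, and 0 lower in P114 over CMT-U229 (0.705%). In CMT-U229 over CMT-U335 it gave 1 higher (4.37%) and 2 lower (3.45%). With the couples averaged, 0 members were set apart in P114, 0 in CMT-U229 and 2 in CMT-U335, and the shares of all genes for these are not given here. A dye term ended 4 calls, of HNRNPC, HNRNPUL2 and SRSF4 in both its pairs. It gave 1 higher (LSM8, 7.62% of all genes) and 12 lower (13.3%) in P114 over CMT-U335. A test of the SAM type, the design text's method, called 1 higher there (HNRNPH3). Its false calls were taken as a median over sign patterns after a mean over them had called 0 genes. The loop fit gave 7 lower in P114 over CMT-U229 (12.7% of all genes) and 8 higher in CMT-U229 over CMT-U335 (12.5%), and limma with trend and robust settings 1 lower in P114 over CMT-U229 (2.04%). With probes tested singly, p adjusted over all 22176 probes and a gene counted once 1 of its probes was called, 8 members were lower in P114 over CMT-U335 (12.7% of all genes) and 3 higher in CMT-U229 over CMT-U335 (7.82%). The median over probes kept 26 of 28 calls, and 1 fit of 3 pair means to all 15 arrays kept 25. The cause of these shifts was not tested.

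Between arrays of different pairs with the same replicate number, 3 of 15 correlations of their deviations were over 0.1 (-0.248 to 0.333). CMT-U229 is the second line in P114 over CMT-U229 and the first in CMT-U229 over CMT-U335, so its shared RNA would give negative values there. The count therefore cannot tell whether replicate numbers pair the arrays, and a block with 1 correlation for all pairs has the same limit. With the replicate number as a block, 15 members were lower in P114 over CMT-U335 (16.6% of all genes) and 4 lower in P114 over CMT-U229 (7.4%), with 4 higher (9.8%) and 6 lower (10.1%) in CMT-U229 over CMT-U335. It kept 24 of 28 calls and ended those of HNRNPA2B1 (adjusted p = 0.0915) and SF3B5 (0.0519) in P114 over CMT-U335 and of HNRNPH3 (0.0549) and SRSF6 (0.0726) in CMT-U229 over CMT-U335.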

Other observations

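HNRNPR, SRSF10 and SRSF4, the 3 members called lower in P114 than in CMT-U229, are also the 3 members on canine chromosome 2 among the 44 with a chromosome in RefSeq (5 had none there), and lie in 1 stretch of it by gene order in RefSeq (UU_Cfam_GSD_1.0). This was looked at after the calls were seen and carries no test. Among the 31 other measured genes from SRSF4 to HNRNPR, 3 were called lower in P114 over CMT-U229 (9.68%) and 1 higher, with a median log2 ratio of -0.15. On the rest of the chromosome, 7 of 190 genes were lower (3.68%) and 7 higher, with a median of -0.01, and 3.98% of all genes were lower. In P114 over CMT-U335, HNRNPR was the 1 of the 3 members called lower, and 6 of the 31 other genes were lower (19.4%), close to the rest of the chromosome (16.3%). In CMT-U229 over CMT-U335, 3 of the 31 genes were higher (9.68%, against 8.77% of all genes) and 1 lower (3.23%, against 8.58%). The 3 member calls in P114 over CMT-U229 ended with apparent dye swaps averaged. Immediate early genes, which also respond to cell handling, were called higher in P114 than in CMT-U335 for 5 of 5 measured, with means from 0.54 to 1.82.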
